A study of Mus musculus with 13 samples.

Results

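The olfactory receptor genes of mouse chromosome 9 were examined as a family of genes that serve the nose, in peak lists made from embryonic limb. They were chosen as the protein-coding genes of chromosome 9 whose symbol in GENCODE release M21 starts with Olfr, which gives 132 of the 21938 protein-coding genes of chromosomes 1 to 19, X and Y. A further 1003 protein-coding receptor genes lie on other chromosomes, and chromosome 9 holds 1078 other protein-coding genes. All 132 receptors fall into 2 tandem clusters when neighbours are joined over gaps of at most 500 kb. Cluster 1 spans chr9:18751507-20336094 on GRCm38 and runs from Olfr24 to Olfr18 with 37 receptors. Cluster 2 spans chr9:37708964-40190134 and runs from Olfr160 to Olfr986 with 95 receptors.

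Olfactory receptors are G-protein-coupled receptors of the nasal epithelium, where each sensory neuron expresses a single receptor allele out of the whole repertoire and keeps the others silent in heterochromatin. CTCF recognises a long, asymmetric DNA motif through its zinc fingers. Cohesin, a ring that contains RAD21 and SMC1 among its subunits, extrudes chromatin loops and is often halted at CTCF sites, so that peaks of CTCF and cohesin mark the anchors of loops and the borders of chromatin domains. Receptor clusters are gene-rich but AT-rich stretches built by tandem duplication, and their genes are short, with the receptor itself encoded in a single exon.

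The series profiled CTCF and cohesin by chromatin immunoprecipitation in limbs of E12.5 mouse embryos, in wild type and in deletions of the HoxD cluster on chromosome 2, a set of genes that pattern the limb. Wild-type CTCF was measured in distal forelimbs and in proximal forelimbs of strain CD1, and in whole forelimbs and hindlimbs of strain B6CBAF1. Wild-type RAD21 was measured in CD1 distal forelimbs and B6CBAF1 whole limbs, and SMC1 in CD1 distal forelimbs. The 4 alleles, all homozygous and in B6CBAF1 whole limbs, were delHoxd(8-13)d11lac, delHoxd(1-13)d9lac, delHoxd(attP-rel5)d9lac and delHoxd(8-13)rXII, below written without Hoxd and kept in this order. CTCF was measured in each and RAD21 in del(8-13)rXII. The CTCF list of del(8-13)rXII differs in tissue and assay as well, since it comes from the forelimbs of 4 embryos and was made by ChIPmentation, and its RAD21 library was sequenced in 2 passes. The deletions lie on chromosome 2, so every list has the chromosome 9 receptors intact by design. Each group has 1 library, so the values below have no replicate check, carry no p, and cannot be told apart from differences between libraries. Peak lists hold neither read depth nor expression: the identity of the tissue and the silence of the receptors could not be checked in them, a missing peak means only that none was called, and the 2 H3K27ac samples were not analysed here. The 11 lists hold between 15927 peaks (RAD21 of del(8-13)rXII) and 73682 peaks (proximal forelimb CTCF).

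A handful of sequences carry most of what follows. The first 5 are the CTCF motifs under sites in or beside cluster 2 that recurred in all 3 wild-type lists, read 5′ to 3′ on the motif's own strand from the genome assembly, with the 20 motif bases in capitals and 5 bases on each side in lower case. The last is a stretch of the tandem repeat under the strongest whole-limb CTCF peak of either cluster, with 1 copy of its unit in capitals.
Edge site before Olfr160, chr9:37690134-37690163, plus strand: atgttACCACCAGGTGGCAGTATGAgaagg
Site after Olfr878, chr9:37932694-37932723, minus strand: aagtaGCCACCAGGTGGTGCTAGTGactca
Site before Olfr933, chr9:38954216-38954245, plus strand: cagtcCTCACTAGAGGGCAGTATTTaactt
Site after Olfr957, chr9:39509168-39509197, plus strand: cgctaTCCACCAGAGGGCGATAAAGcacag
Site in Olfr148, chr9:39612157-39612186, minus strand: tcttgGCCACTGGGTGGCTCTCATGctatg
Repeat before Olfr855, chr9:19575458-19575487, plus strand: GGAATggaatggaatggaatggaatggaat

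Both clusters were poor in CTCF and cohesin peaks in all 11 lists. Per Mb of assembled sequence the clusters, 4.07 Mb together, held a median of 2.95 CTCF peaks over the 7 CTCF lists (range 2.21 to 6.89), against a median of 20.8 (18.1 to 33.0) in the other 117.1 Mb of chromosome 9. For the 4 cohesin lists the medians were 1.11 peaks per Mb (0.738 to 3.94) in the clusters and 9.72 (7.68 to 15.01) in the rest. The ratio of the density in the clusters to that in the rest had a median of 0.142 for CTCF and 0.140 for cohesin, and the upper end of its exact 95% interval, which covers counting error only, lay below 1 in 11 of 11 lists.

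In whole-limb wild type the clusters held 12 CTCF peaks where the density of the rest would give 84.6, a ratio of 0.142 (95% interval 0.0732 to 0.248), or 7.05 times fewer. Distal forelimb had 27 CTCF peaks in the clusters (ratio 0.205, 0.135 to 0.299) and proximal forelimb had 28 (ratio 0.209, 0.138 to 0.302). The CD1 forelimb lists, which are also the longest on the whole genome, thus had the highest ratios among the CTCF lists. Among the alleles 12 peaks were counted in del(8-13)d11lac (ratio 0.101), 12 in del(1-13)d9lac (0.147), 11 in del(attP-Rel5)d9lac (0.133) and 9 in del(8-13)rXII (0.122). Their intervals all contain the whole-limb wild-type ratio, so no allele stood apart from wild type at this count.

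Cohesin followed the same order of magnitude. Whole-limb RAD21 had 16 peaks in the clusters (ratio 0.262, 0.149 to 0.427), the highest ratio of the 11 lists, and RAD21 of del(8-13)rXII had 4 (0.128, 0.0348 to 0.329). Distal forelimb RAD21 had 5 peaks (0.153, 0.0495 to 0.358) and distal forelimb SMC1 had 3 (0.0648, 0.0133 to 0.190). With so few peaks these intervals overlap one another throughout.

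**Figure D1:**
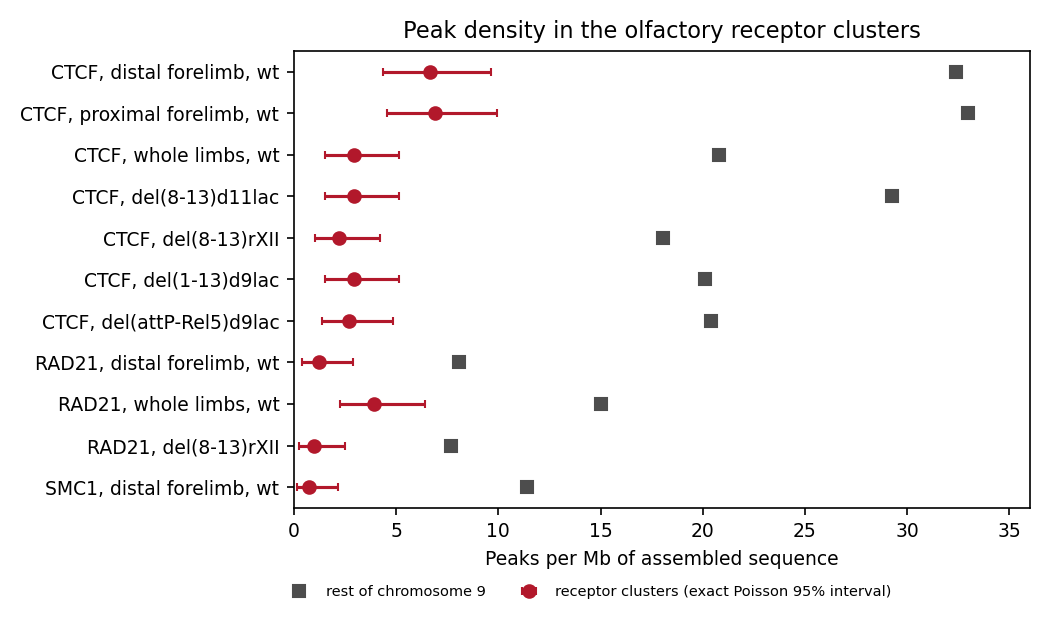
Peaks per Mb of assembled sequence (x axis) in each of the 11 lists (y axis), in the receptor clusters (circles, exact Poisson 95% intervals that cover counting error only) and in the rest of chromosome 9 (squares). The cluster values run from 0.738 to 6.89 and lie below the rest of the chromosome in all 11 lists.

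The clusters are also AT-rich and repetitive, and the ratio changed with the GC content of the sequence they were set against. GC content was 37.8% in the clusters and 42.9% in the rest, repeats marked in lower case in the assembly covered 48.7% against 31.4%, and of the sampled 50-base words 84.4% and 92.0% occurred once in the genome. When the rest was limited to the 226 windows of 100 kb whose GC content lay in the range of the cluster windows (35.7% to 39.4%), the median CTCF ratio rose from 0.142 to 0.522 (range 0.339 to 0.593). The whole-limb ratio became 0.515 (95% interval 0.259 to 0.931). The upper end of the interval passed 1 in 2 of the 7 CTCF lists, del(1-13)d9lac (1.05) and del(attP-Rel5)d9lac (1.01), and in all 3 RAD21 lists, where it was 1.75 in distal forelimb, 1.20 in whole limbs and 1.57 in del(8-13)rXII. The ratio was thus closer to 1 against sequence of like GC content in all 11 lists, and the part of base composition in the result was not tested. Counting only sequence whose 50-base words are unique moved the median CTCF ratio little, to 0.155.

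Of the 38 windows of 100 kb that lie wholly inside a cluster, 29 (76.3%) had no whole-limb CTCF peak. The share without one was 25.6% of the 1172 windows of the rest and 58.8% of the 226 windows in the same GC range. No cluster window held more than 3 whole-limb peaks.

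**Figure D2:**
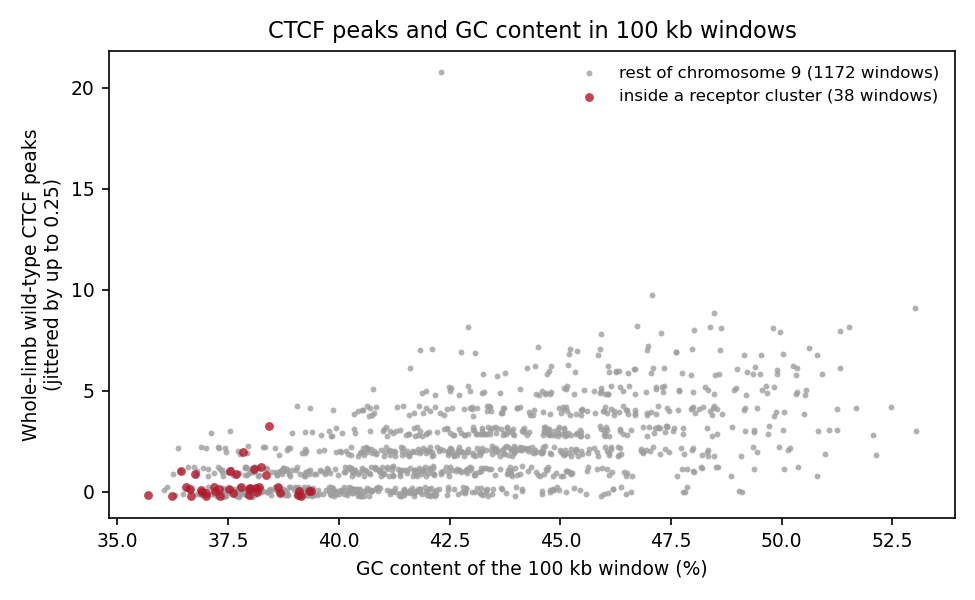
Whole-limb wild-type CTCF peaks (y axis, jittered by up to 0.25) against GC content (x axis, %) for 100 kb windows of chromosome 9, with windows inside a receptor cluster in red and all others in grey. The 38 cluster windows lie between 35.7% and 39.4% GC and hold 0 to 3 peaks, a GC range in which grey windows also hold few.

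Cluster 1 was the emptier of the pair in all 11 lists. It is also the more repetitive, with 55.95% of its sequence marked as repeats against 44.1%. Of its sampled 50-base words 81.1% were unique, against 86.5% in cluster 2, and the part of this in the counts was not tested. Cluster 1 held 2 whole-limb CTCF peaks in 1.58 Mb (ratio 0.0606, 0.00734 to 0.219), against 10 in the 2.48 Mb of cluster 2 (0.194, 0.0927 to 0.357), and these intervals overlap. No peak at all was called in cluster 1 for CTCF in del(8-13)rXII or for SMC1, and a floor of 3 peaks would correspond to ratios of 0.105 and 0.166. Across the 71 consecutive stretches of the same length elsewhere on chromosome 9, whole-limb CTCF counts ran from 5 to 67 with a median of 32. For cluster 2 the 46 stretches of its length ran from 10 to 107 with a median of 53.5, so its 10 peaks equalled the lowest of them. In del(1-13)d9lac and del(attP-Rel5)d9lac CTCF, distal forelimb RAD21 and SMC1, 1 of the 71 stretches held as few peaks as cluster 1 or fewer. In RAD21 of del(8-13)rXII 2 of the 71 did. For cluster 2 it was 1 of the 46 in every list but CTCF of distal forelimb, proximal forelimb and del(8-13)d11lac. The stretches were not matched for GC content.

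In the first 100 kb outside the clusters, peak density was near that of the rest (20.8 per Mb for whole-limb CTCF). In the first 100 kb beyond their ends, 0.4 Mb in all, whole-limb CTCF peaks numbered 9, or 22.5 per Mb (95% interval 10.3 to 42.7). Between 100 and 500 kb away the density was 28.1 per Mb (20.5 to 37.6). Distal forelimb CTCF gave 27.5 and 40 per Mb in the same bands (rest 32.4), and SMC1 gave 14.4 per Mb in the second (rest 11.4). Between 500 and 1000 kb away whole-limb CTCF stood at 29 per Mb (22.0 to 37.5) and distal forelimb CTCF at 52 (42.5 to 63.0). Both intervals lie above the rest, whereas that of SMC1 (15 per Mb, 10.1 to 21.4) contains it.

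Few of the receptors had a peak in the gene or within 5 kb of it. The whole-limb CTCF list touched 6 of the 132 (4.55%, Wilson 95% interval 2.10 to 9.56), where 71.8% of the other protein-coding genes of chromosome 9 had a peak by the same rule. Distal forelimb CTCF touched 13 (other genes 81.6%) and proximal forelimb CTCF 10 (other genes 81.9%). The alleles gave 4 in del(8-13)d11lac (other genes 80.3%), 7 in del(1-13)d9lac (70.7%), 5 in del(attP-Rel5)d9lac (71.3%) and 5 in del(8-13)rXII (65.5%). RAD21 touched 2 receptors in distal forelimb (other genes 42.3%), 6 in whole limbs (61%) and 2 in del(8-13)rXII (39.5%), and SMC1 touched 2 (54.2%).

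Receptor genes are short, with a median length of 5480 bases against 24158 for the other genes, so the windows above are smaller for them. With windows of equal size, 5 kb on each side of the transcription start, CTCF reached 5 receptors in distal forelimb (3.79%, other genes 52.9%), 4 in proximal forelimb (53.3%) and 2 in whole limbs (39.1%). In the alleles, in the order given, it reached 1, 2, 2 and 2 receptors, where 51.5%, 37.8%, 39.2% and 32.6% of the other genes had a peak. RAD21 reached 1 receptor in distal forelimb (15.8%), 3 in whole limbs (31.1%) and 1 in del(8-13)rXII (14.5%), and SMC1 reached 1 (23.9%). The gap to the other genes was thus present with equal windows in all 11 lists. The other genes were not matched for GC content in any of these shares, and the part of base composition in the gap was not tested. The windows of neighbouring receptors overlap, so 1 peak can count for several receptors, and windows of gene plus 5 kb cover 49.2% of the cluster sequence.

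Over all 11 lists, 109 receptors (82.6%) had no peak of any kind within 5 kb, against 11.6% of the other genes, and 22 had a CTCF peak in at least 1 list, against 87% of the other genes. For 14 of the 132 (10.6%) the peak was in exactly 1 of the 7 CTCF lists, against 4.45%. Only Olfr881, Olfr957, Olfr148 and Olfr986 had a CTCF peak in all 7 (other genes 62.4%), and the same 4 were the receptors with a peak in all 3 wild-type lists (other genes 70.5%). All 4 lie in cluster 2, and Olfr986 is its last gene. Of the 22, 2 lie in cluster 1: Olfr839-ps1, where distal forelimb CTCF had a weak peak in an untranslated exon (−log10 q 1.49), and Olfr850, reached by a proximal forelimb peak alone (4.03).

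Cohesin within 5 kb was called in any list for 6 receptors (4.55%), against 66.2% of the other genes. Olfr957 and Olfr148 had it in all 4 cohesin lists (other genes 34.3%), and Olfr881, Olfr924, Olfr943 and Olfr986 in whole-limb RAD21 alone, at −log10 q of 5.94, 1.66, 3.57 and 5.28. The authors' −log10 q grows with depth, which is unknown, so it ranks peaks within a list and does not compare lists. Wild-type CTCF peaks overlapped the body of 3 receptors: Olfr148 in all 3 lists, Olfr887 in distal forelimb (2.84) and whole limbs (4.67) at separate positions, and Olfr839-ps1. That is 3 receptors in distal forelimb (other genes 67.2%), 1 in proximal forelimb (67.3%) and 2 in whole limbs (56.3%). The alleles had a CTCF peak in the body of 1, 3, 1 and 1 receptors (other genes 65.4%, 55.9%, 55.7% and 49.1%). Cohesin peaks overlapped the body of 1 receptor in distal forelimb RAD21 (30%), 2 in whole-limb RAD21 (45.3%), 1 in RAD21 of del(8-13)rXII (27%) and 1 in SMC1 (39%), Olfr148 in each.

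**Figure D3:**
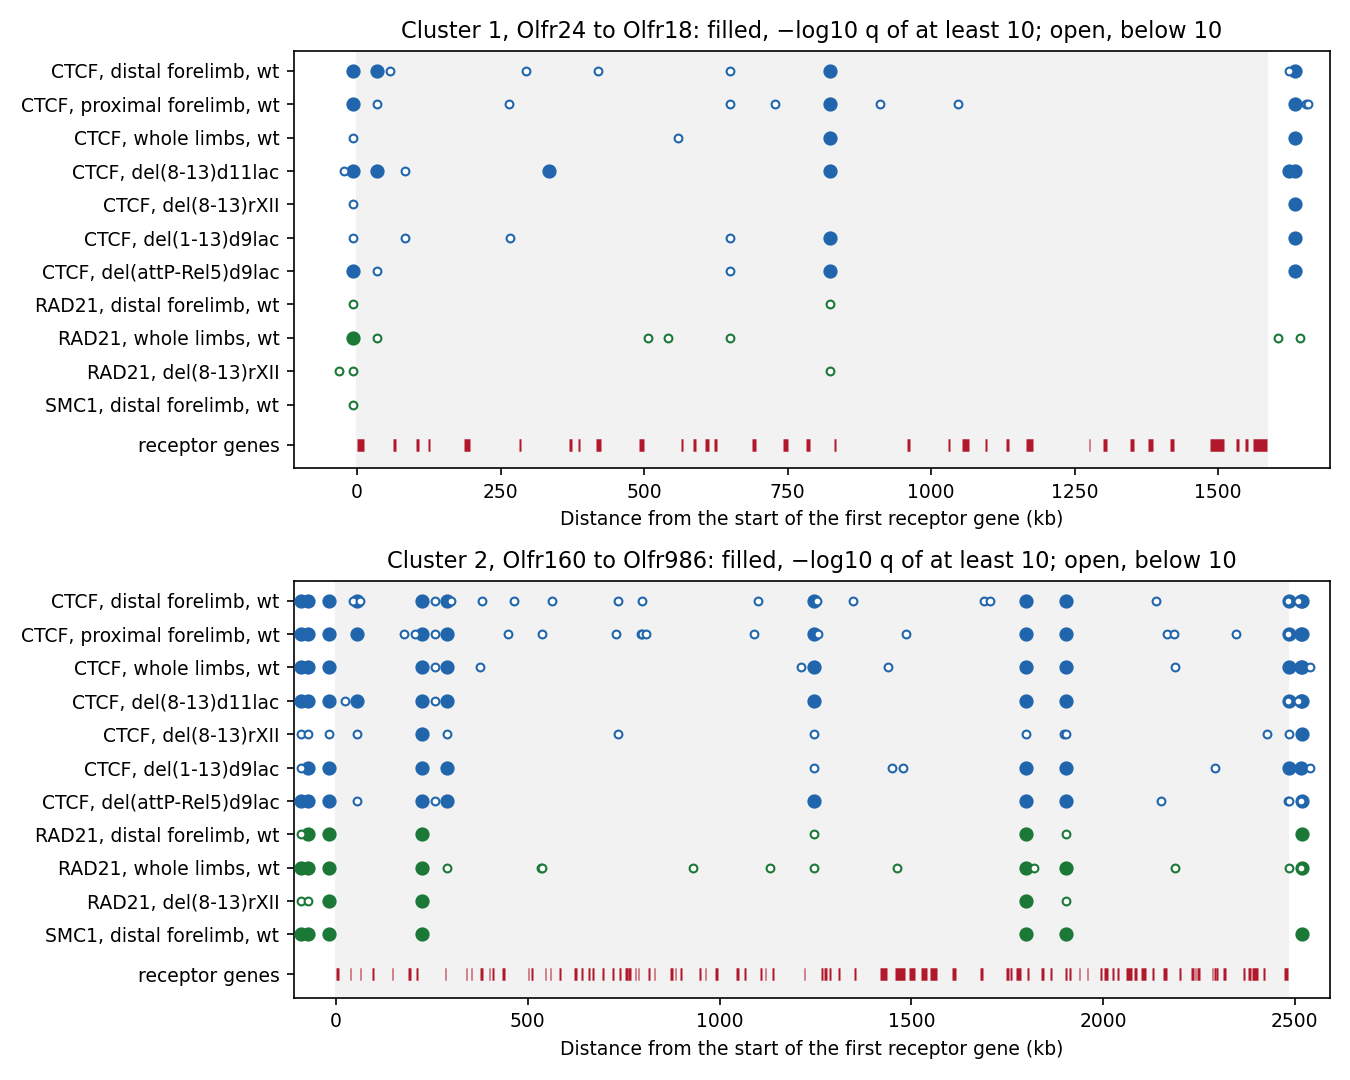
Positions of peaks in the 11 lists (y axis) along both clusters and 100 kb on either side (x axis, kb from the start of the first receptor gene). Filled points have −log10 q of at least 10, open points less, the grey field is the cluster and red marks are receptor genes. Columns of points in all 11 lists stand at 3 places inside cluster 2, and outside the clusters before Olfr24 and at 3 places before Olfr160.

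The few peaks that were shared between lists stood apart from a scatter of peaks called once. Merging the 7 CTCF lists gave 59 sites in the clusters and 5127 in the rest of the chromosome. In the clusters 46 of 59 sites (77.97%, Wilson 95% interval 65.9 to 86.7) were called in 1 list, against 30.4% in the rest, and 5 (8.47%, 3.67 to 18.3) in all 7 lists, against 32.0%. Expressed as density, sites of 1 list were nearly as frequent in the clusters as elsewhere (ratio 0.851, 0.621 to 1.14), and sites in all 7 lists were far rarer (ratio 0.0878, 0.0285 to 0.205). In windows of the clusters' GC range the same contrast held with smaller distance: sites of 1 list had a ratio of 1.11 (0.792 to 1.53), and sites in all 7 lists 0.407 (0.128 to 0.998).

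The 46 sites of 1 list were weak and seldom had the CTCF motif. Of these, 15 came from distal forelimb and 17 from proximal forelimb, the longest lists, 5 from whole limbs, and 2, 4, 1 and 2 from the alleles in the order given. Their median −log10 q was 3.24 and their highest 11.9. A motif was found at 8 (17.4%) and a cohesin peak at 2. In 31 of the 46 (67.4%), fewer than 50% of the sampled 50-base words in the site occur once in the genome, so that a read of this length there would have more than 1 possible origin, whereas none of the 8 sites called in 5 or more lists was below 95.2%. The part of such ambiguous reads in the single calls was not tested. These values were not taken for the sites of 1 list in the rest of the chromosome, so they are not shown to be particular to the clusters.

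**Figure D4:**
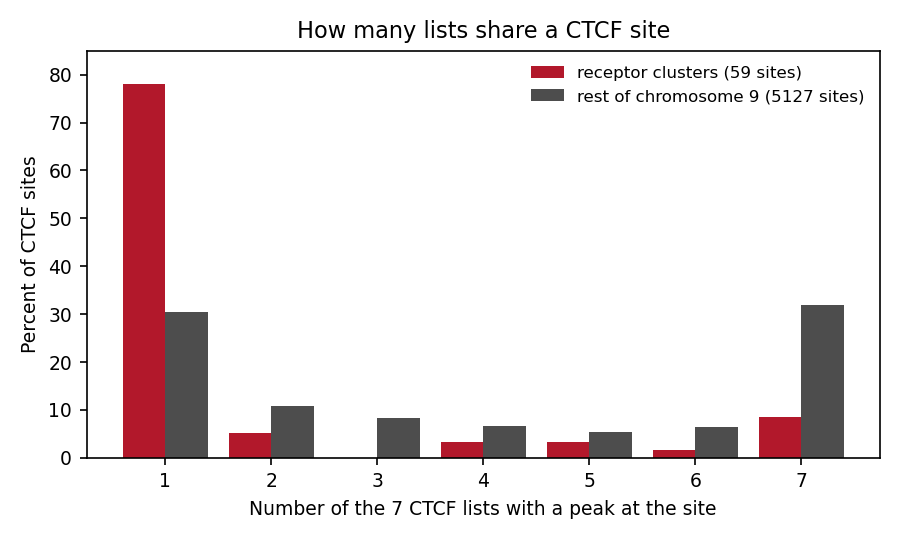
Percent of CTCF sites (y axis) by the number of the 7 CTCF lists that hold a peak there (x axis), in the clusters (red, 59 sites) and in the rest of chromosome 9 (grey, 5127 sites). Sites of 1 list make up 77.97% in the clusters and 30.4% elsewhere, and sites of all 7 lists 8.47% and 32.0%.

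Sites in all 3 wild-type CTCF lists numbered 7, of which 6 were in cluster 2 (ratio of all 7 to the rest 0.0913, 0.0367 to 0.189). They are described from the strongest motif down. A motif was scored in bits against a matrix of 20 bases learned from whole-limb peaks on other chromosomes, and a score of 6.97, which 5% of control windows pass, was needed to count.

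The site 10.2 kb past the end of Olfr878 (chr9:37932467-37933030, intergenic) had the highest motif score of the clusters' recurrent sites, 23.2 bits on the minus strand. Its −log10 q was 128 in distal forelimb, 131 in proximal forelimb and 39.5 in whole limbs, and 134 in del(8-13)d11lac, 19.9 in del(1-13)d9lac, 60.4 in del(attP-Rel5)d9lac and 15.4 in del(8-13)rXII. For cohesin it was 19.9 (RAD21) and 36.5 (SMC1) in distal forelimb, 54.8 in whole-limb RAD21 and 11.5 in RAD21 of del(8-13)rXII. The site was thus called in all 11 lists. It lies outside the 5 kb window of Olfr878, so no receptor counts it.

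The site 1.0 kb past the end of Olfr957 (chr9:39508920-39509514, intergenic; the gene lies at chr9:39510234-39515809 on the minus strand) scored 20.8 bits on the plus strand. Its CTCF −log10 q was 118, 118 and 24.1 in distal forelimb, proximal forelimb and whole limbs, and 129, 26.3, 53.6 and 8.16 in the alleles in the same order. Its cohesin values were 15.7 (RAD21) and 32.3 (SMC1) in distal forelimb, 77.0 in whole-limb RAD21 and 21.4 in RAD21 of del(8-13)rXII. This was the strongest cluster peak in both whole-limb-tissue RAD21 lists.

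The site in an intron of Olfr148 (chr9:39611926-39612479, 1.5 kb after the start of the gene) scored 13.8 bits on the minus strand. Its CTCF −log10 q was 81.2, 79.1 and 22.5 in the wild-type lists and 69.0, 26.4, 24.9 and 2.54 in the alleles, and its cohesin values were 5.46 (RAD21) and 15.8 (SMC1) in distal forelimb, 29.9 in whole-limb RAD21 and 7.48 in RAD21 of del(8-13)rXII. It was the only recurrent site inside a receptor gene, and the third that all 11 lists shared. Olfr957 and Olfr148 are separated by 102.4 kb between their sites, which holds Olfr957, 2 further receptors and the non-receptor gene AW551984.

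The remaining recurrent sites of cluster 2 had little or no cohesin. The site 18.1 kb before Olfr933 (chr9:38953856-38954588, 11.6 bits, plus strand) had CTCF −log10 q of 84.2, 53.9 and 21.04 in wild type and 76.05, 6.06, 28.1 and 8.73 in the alleles, with RAD21 at 5.75 in distal forelimb and 8.47 in whole limbs. The site 2.4 kb past Olfr881 (chr9:37998549-37999109) had CTCF in all 7 lists, at 77.0, 81.0 and 22.0 in wild type and 65.2, 17.9, 30.2 and 3.92 in the alleles, and RAD21 in whole limbs alone (5.94). Its best motif match, 6.95 bits, fell just under the threshold. A weak site 25.0 kb before Olfr881 (chr9:37966601-37966950) had CTCF at 8.21, 8.80 and 6.64 in wild type, 6.90 in del(8-13)d11lac and 6.22 in del(attP-Rel5)d9lac, with no motif and no cohesin.

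Of the 15 CTCF sites of the clusters with a motif, 11 had no whole-limb wild-type peak, and 8 of these 11 were called in 1 list. The same shares in the rest were not counted, so they are not shown to be particular to the clusters. The one called in most lists lay at chr9:37762568-37762932, 9.1 kb from Olfr875, where a match of 17.6 bits lay under CTCF peaks of distal forelimb (13.4), proximal forelimb (11.7), del(8-13)d11lac (15.6), del(attP-Rel5)d9lac (3.31) and del(8-13)rXII (5.58). No cohesin peak was called there. A match of 22.2 bits at chr9:19085005-19085312, 35.2 kb from Olfr836 in cluster 1, lay under a CTCF peak of del(8-13)d11lac alone (11.9).

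The strongest whole-limb CTCF peak of either cluster, 7.2 kb before Olfr855 in cluster 1 (chr9:19575263-19575688, intergenic), had no CTCF motif. Its best match within 50 bases of the summit scored -18.2 bits and its best anywhere in the peak -4.06. Instead its summit in 6 CTCF lists lay in a run of 14 perfect copies of GGAAT, the last sequence printed above (chr9:19575438-19575507). The CTCF −log10 q there was 73.6, 59.4 and 76.6 in the wild-type lists, and 57.5, 59.7 and 73.9 in the first 3 alleles, and no peak was called in del(8-13)rXII, the ChIPmentation list. Cohesin was weak there, with 1.99 in distal forelimb RAD21 and 6.86 in RAD21 of del(8-13)rXII, and absent from the whole-limb RAD21 and SMC1 lists. Without this peak cluster 1 had no recurrent CTCF site at all, the recurrent sites of both clusters numbered 6 (ratio 0.0783, 0.0287 to 0.171), and the whole-limb density ratio was 0.130. In the whole-limb list it was the only cluster peak with −log10 q above 40.

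Recurrent CTCF sites flanked all 4 cluster ends, 3 of them with a cohesin peak. Before Olfr24, the first gene of cluster 1, a site 6.6 kb away (chr9:18744583-18745193) was called in all 11 lists, with CTCF at 62.3, 51.5 and 3.75 in wild type and whole-limb RAD21 at 40.0, and had no motif. Before Olfr160, the first gene of cluster 2, the site 18.8 kb away towards Panx3, a pannexin gene, had the first motif printed above (20.3 bits, plus strand) and was likewise called in all 11 lists, with CTCF at 99.8, 111 and 23.1 in wild type and whole-limb RAD21 at 36.5. Past Olfr986 a site in an intron of the zinc-finger gene Zfp202 (chr9:40192397-40192903, 12.6 bits, minus strand) lay 2.6 kb from the receptor, with CTCF at 32.9, 46.5 and 10.95 in wild type and RAD21 in whole limbs alone (5.28). Olfr986 counted as a receptor with CTCF through this edge site and a weaker one 2.0 kb from the gene. At the fourth edge the first recurrent site past Olfr18 was 49.2 kb away, beside the zinc-finger gene Zfp560, with CTCF at 110, 148 and 44.6 in wild type and no cohesin peak in any list.

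Between the recurrent sites lay long stretches of receptors. The longest stretch of chromosome 9 without a CTCF peak in any wild-type list was 575.9 kb (chr9:19798832-20374704), the first in length of 4676 when the 3 wild-type lists are joined, and it held the last 14 receptors of cluster 1, from Olfr859 to Olfr18, before ending in Zfp560. In the whole-limb list alone the longest cluster stretch was 836.6 kb, and with −log10 q of at least 10 in the joined lists 954.9 kb, and each of these ranked 4 on the chromosome. The longest in cluster 2 in the joined lists was 280.8 kb with 11 receptors from Olfr911-ps1 to Olfr921 and the gene Vwa5a. The median stretch on the chromosome was 13.99 kb. Between recurrent sites the longest cluster stretches were 954.7 kb with 41 receptors (Olfr883 to Olfr930), 830.1 kb with 20 (Olfr24 to Olfr854) and 809.3 kb with 17 (Olfr855 to Olfr18), against a median of 25.2 kb on the chromosome, and the last 2 meet at the GGAAT peak.

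The start of a receptor gene was a median of 34.3 kb from the nearest wild-type CTCF peak, against 3.63 kb for other genes of the chromosome. To the nearest recurrent site the median was 173.2 kb against 8.86 kb, and 88 receptors (66.7%) were more than 100 kb away, against 2.41% of the other genes. These distances were not matched for GC content. The 5 receptors farthest from any wild-type CTCF peak were neighbours in cluster 1: Olfr868 at 276.1 kb, Olfr867 at 258.7 kb, Olfr869 at 245.7 kb, Olfr866 at 229.2 kb and Olfr870 at 200.6 kb. Olfr148 was the nearest to a recurrent site, at 1.27 kb.

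CTCF peaks of the clusters were paired with cohesin at shares near those elsewhere in whole limbs, and their recurrence between lists was lower than elsewhere by more than the counting error. In whole limbs 6 of 12 (50%, Wilson 95% interval 25.4 to 74.6) overlapped RAD21, against 52.1% in the rest. In distal forelimb 5 of 27 (18.5%, 8.18 to 36.7) overlapped RAD21, against 24.0%, and 3 of 27 (11.1%, 3.85 to 28.1) overlapped SMC1, against 32.7%. With −log10 q of at least 10 the SMC1 shares turned round, to 37.5% (13.7 to 69.4) of 8 distal CTCF peaks against 28.8%. Conversely, 5 of 5 distal RAD21 peaks and 3 of 3 distal SMC1 peaks of the clusters lay on distal CTCF. In the rest 97.2% and 94.3% did, so these shares were near those elsewhere. In whole limbs 6 of 16 RAD21 peaks (37.5%, 18.5 to 61.4) lay on CTCF, against 72.2% in the rest. Over all lists 7 of the 17 cohesin sites of the clusters had no CTCF peak in any list, and the share in the rest was not counted. All 7 were called in whole-limb RAD21 alone, the highest with −log10 q of 4.27.

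Of the 12 whole-limb wild-type CTCF peaks, 7 (58.3%, 31.9 to 80.7) were called again in del(8-13)d11lac, 6 (50%, 25.4 to 74.6) in del(1-13)d9lac, 7 (58.3%) in del(attP-Rel5)d9lac and 5 (41.7%, 19.3 to 68.1) in del(8-13)rXII. In the rest of the chromosome the shares were 93.1%, 81.6%, 83.8% and 72.6%, each above the interval of the clusters. Distal and proximal forelimb shared 11 cluster peaks, 40.7% of the distal and 39.3% of the proximal ones, against 83.4% and 81.8% elsewhere. The gap was smaller among strong peaks. With −log10 q of at least 10 in both lists, 6 of 6 whole-limb peaks were called in del(8-13)d11lac and del(attP-Rel5)d9lac (100%) and 83.3% in del(1-13)d9lac, beside 99.3%, 92.8% and 86.5% in the rest. Distal and proximal sharing became 87.5% and 100%, beside 91.6% and 91.9%. In del(8-13)rXII the share fell to 16.7% beside 44.3%, and without the GGAAT peak, which that list lacks, the shares of the deposited peaks were 54.5%, 45.5%, 54.5% and 45.5% of 11 in the 4 alleles in the order given.

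RAD21 of whole limbs was called again in del(8-13)rXII at 3 of 16 cluster peaks (18.8%, 6.59 to 43.0) and at 48.9% in the rest. These were the sites of Olfr878, Olfr957 and Olfr148, the same that all 11 lists shared. Peaks of an allele that no wild-type CTCF list held numbered 3 of 12 in del(8-13)d11lac, 5 of 12 in del(1-13)d9lac, 1 of 11 in del(attP-Rel5)d9lac and 2 of 9 in del(8-13)rXII, the strongest with −log10 q of 11.9. These are 25%, 41.7%, 9.09% and 22.2% of the cluster peaks, against 7.50%, 5.02%, 2.43% and 5.91% in the rest. The alleles differ from wild type on chromosome 2, so these single-library differences on chromosome 9 have no replicate to be read against.

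The receptor clusters contained fewer CTCF motifs, and fewer of those they contained were occupied. Matches of at least 12 bits, counted on both strands without regard to peaks, numbered 132 in the clusters, or 32.5 per Mb, against 96.6 per Mb in the rest (ratio 0.336, 0.281 to 0.399). In the rest's windows of like GC content the density was 38.6 per Mb, close to that of the clusters. A whole-limb CTCF summit lay within 50 bases of 3 of the 132 (2.27%, Wilson 95% interval 0.776 to 6.47), against 14.9% of 11310 in the rest and 6.80% (5.31 to 8.67) of 868 in windows of like GC content, an interval that overlaps that of the clusters. Counting any of the 7 CTCF lists, 8 of 132 (6.06%, 3.10 to 11.5) were occupied, against 25.9%. Among the 8 strongest matches of the clusters, of at least 18 bits, 3 were occupied in any list (37.5%, 13.7 to 69.4), against 75.0% of 1503.

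**Figure D5:**
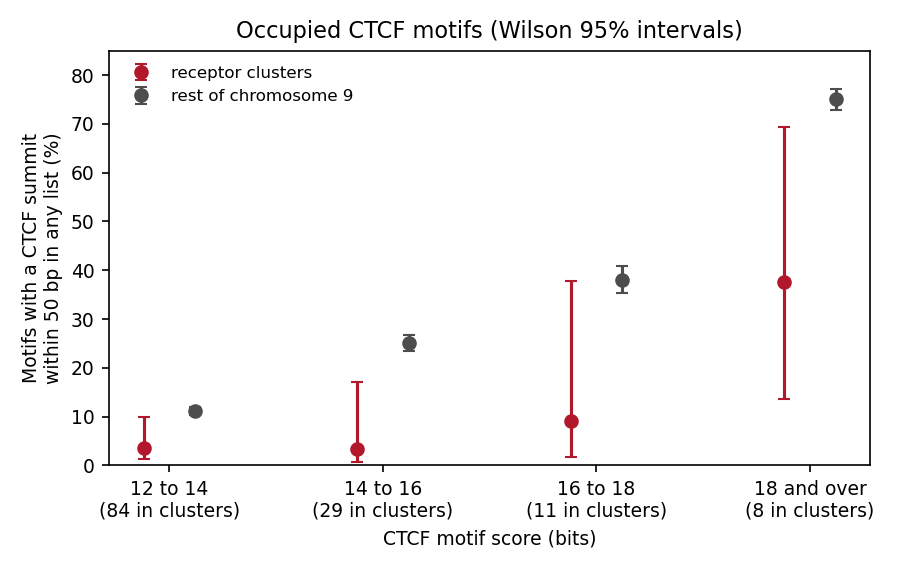
Share of CTCF motif matches with a CTCF summit within 50 bases in any of the 7 lists (y axis, %) by motif score (x axis, bits), in the clusters (red) and in the rest of chromosome 9 (grey), with Wilson 95% intervals that cover counting error only. The share rises with the score in the rest from 11.2% to 75.0%, and the cluster values, from 3.45% to 37.5%, lie lower in each class with wide intervals.

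Seen from the peaks, 4 of the 12 whole-limb CTCF peaks in the clusters (33.3%, 13.8 to 60.9) had a motif within 50 bases of the summit, against 78.2% in the rest. All 4 were among the 6 peaks with −log10 q of at least 10, and none of the 6 weaker peaks had one, where 55.1% of the weaker peaks did in the rest. In distal forelimb 6 of 8 strong and 5 of 19 weak cluster peaks had a motif (rest 86.8% and 51.8%), and in proximal forelimb 5 of 7 and 3 of 21 (rest 87.0% and 49.6%). In del(8-13)rXII 0 of 1 strong and 3 of 8 weak cluster peaks had one (rest 53.9% and 40.3%). The 1 strong peak was at the Olfr878 site, whose motif of 23.2 bits did not lie within 50 bases of that list's summit. In the rest 45.0% of this list's peaks had a motif within 50 bases, the lowest share of the 7 CTCF lists.

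Genes that serve olfactory receptors had CTCF at shares near those of all genes. Of 21 genes for signalling (such as Gnal and Adcy3), receptor transport (Rtp1, Rtp2) and receptor choice (Lhx2, Ldb1, Ebf1, Kdm1a), 6 (28.6%, 13.8 to 50.0) had a whole-limb CTCF peak within 5 kb of the start, against 35.7% of all protein-coding genes. In distal forelimb 11 of 21 (52.4%) did, against 48.9%. Whole-limb RAD21 was called at 6 (28.6%), against 27.1%. The other cohesin lists were lower than all genes, though with intervals that contain the share of all genes. Distal forelimb RAD21 was called at 1 (4.76%, 0.846 to 22.7) against 13.3%, and RAD21 of del(8-13)rXII at 1 (4.76%) against 11.9%. SMC1 was called at 3 (14.3%, 4.98 to 34.6) against 20.3%. The strongest whole-limb peaks were at Emx2, a homeobox gene of the developing brain (−log10 q 87.4), the histone demethylase gene Kdm1a (83.5), the channel subunit gene Cngb1 (48.5) and Omp, the olfactory marker protein (16.02). Emx2 alone had RAD21 and SMC1 in all 4 cohesin lists.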

How the data were processed

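CTCF, RAD21 and SMC1 peak lists of 11 limb samples were used, and 2 H3K27ac samples were not analysed here. Per the submitters' processing notes cutadapt, Bowtie2, MACS2 and mm10 were used, with versions not given in the sources used here. In the deposited narrowPeak lists the score is the −log10 q times 10, the fold enrichment is a ratio, and each peak's −log10 p, −log10 q and summit offset were likewise computed by the authors. The lowest −log10 q is 1.3 in each list, a q of 0.05. Fixation lasted 10 minutes for CTCF, 10 or 25 for RAD21 (not given per library) and 25 for SMC1, per the labels' protocols.

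Peaks of the same region were merged to the strongest summit, which placed a peak in or outside a cluster. Coordinates are 1-based on GRCm38 with GENCODE M21, and no peak passed a chromosome end. Sites were shared with an overlap of at least 1 base. Densities are per Mb of assembled sequence. Their ratios have exact conditional 95% intervals and shares have Wilson intervals, which cover counting error only, and the ratio was tested on simulated data. Uniqueness was read for every 10th 50-base word of chromosome 9. The motif matrix came from the 2000 strongest whole-limb summits outside chromosome 9. Named genes are the cluster ends, receptors overlapped by wild-type CTCF, those nearest the 10 strongest whole-limb peaks, those with cohesin, the 5 farthest from CTCF, and 4 pathway genes; others were named after their values were seen. Members and lists were chosen with earlier results of these data known. Python 3.11.15, numpy 2.4.6, pandas 2.3.3 and scipy 1.17.1 were used.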

Additional observations from a re-analysis of the deposited data

How the results depend on the processing

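No paired analysis was possible because each group has 1 library and no test was made. The direction of the density ratio was below 1 in all 110 recalculations, of which 90 stayed within the 95% interval of the value given above. Joining receptors over 1 Mb gave the same 2 clusters, so those recalculations repeat the main value and could not differ. Leaving out the GGAAT peak likewise changes nothing in the lists that lack it. Against windows of like GC content the ratios were, for CTCF in distal forelimb, proximal forelimb, whole limbs and the 4 alleles in the order of the report, 0.593, 0.522, 0.515, 0.339, 0.578, 0.544 and 0.479, and for RAD21 in distal forelimb, whole limbs and del(8-13)rXII and for SMC1 0.692, 0.709, 0.568 and 0.286. With −log10 q of at least 10 they were 0.0878 in distal forelimb CTCF, 0.0772 in proximal forelimb CTCF, 0.0390 in del(8-13)rXII CTCF and 0.0798 in whole-limb RAD21. Cluster 1 alone gave 0.117 in distal forelimb, 0.134 in proximal forelimb and 0.0606 in whole-limb CTCF, and 0 in del(8-13)rXII CTCF and in SMC1. Without the GGAAT peak, an alternative chosen after seeing the data, the CTCF ratios ran from 0.0924 to 0.201.

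The number of receptors with a peak depended on the window. In the same order of 11 lists, the gene plus 10 kb gave 24, 22, 12, 9, 12, 10, 9, 6, 11, 6 and 4 receptors (other genes 74.8% to 89% for CTCF and 48.3% to 71.5% for cohesin), the gene body alone 3, 1, 2, 1, 3, 1, 1, 1, 2, 1 and 1, and 5 kb around the start 5, 4, 2, 1, 2, 2, 2, 1, 3, 1 and 1. With −log10 q of at least 10 the numbers were 4 in distal and proximal forelimb CTCF, 4 in del(1-13)d9lac, 3 in del(attP-Rel5)d9lac and 0 in del(8-13)rXII CTCF, and 1, 2 and 1 in the RAD21 lists (other genes 36.7% to 73.4% over the CTCF and 26.3% to 46.4% over the cohesin lists). With at least 50% of the peak covered, distal CTCF overlapped RAD21 at 3.70% (rest 16.4%); with −log10 q of at least 10 it overlapped SMC1 at 37.5% (rest 28.8%), alleles kept 100%, 83.3%, 100% and 16.7% of the whole-limb peaks in the order above, distal and proximal sharing was 87.5% and 100%, and the longest cluster stretch without CTCF was 954.9 kb, ranked 4 on the chromosome. The cause of these shifts was not tested beyond the smaller number of peaks or bases that each setting counts.

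Depth is unknown, so an absent peak cannot be told from a shallow library. Strain, tissue, assay and library are confounded between lists. With 3 to 28 cluster peaks a list, the counting error is wide. Occupancy by number of lists, motif counts and the repeat were examined after the peak lists had been seen.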

Other observations

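The GGAAT peak of cluster 1 had counterparts elsewhere in the genome. Chromosomes 1 to 19, X and Y hold 43 runs of at least 5 perfect copies of GGAAT or its complement ATTCC, 4 of them on chromosome 9. CTCF peaks covered 39 of the 43 (90.7%, Wilson 95% interval 78.4 to 96.3) in distal forelimb, 37 (86.0%) in proximal forelimb and 39 (90.7%) in whole limbs, although peaks of these lists cover 0.969%, 1.03% and 0.507% of the genome. Among the alleles 34 were covered in del(8-13)d11lac, and 38 each in del(1-13)d9lac and del(attP-Rel5)d9lac, but 0 of 43 (upper limit 8.20%) in del(8-13)rXII. The CTCF list of that allele differs from the other 6 in assay (ChIPmentation), tissue and genotype, and these cannot be told apart. Cohesin peaks covered fewer runs than those 6 lists: 10 in distal forelimb RAD21, 13 in whole-limb RAD21, 14 in RAD21 of del(8-13)rXII and 11 in SMC1. Peaks of these cohesin lists also cover less of the genome, 0.171%, 0.412%, 0.168% and 0.231% in that order. The RAD21 list of del(8-13)rXII, with peaks at 14 runs, differs from the CTCF list of this allele in target, tissue and assay, which cannot be told apart either. No input track was used here, so mappability and copy number at these repeats were not examined, and why they carry peaks was not tested.

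Taken cluster by cluster, receptor clusters on other chromosomes had a higher median whole-limb CTCF ratio than either cluster of chromosome 9 (0.0606 and 0.194). These ratios were not matched for GC content. By the same rule 31 clusters with 26.2 Mb lie elsewhere, and their whole-limb CTCF density relative to the rest of their own chromosome had a median of 0.385, with a range from 0 to 2.33. The ratio was below 1 in 27 of the 31, and 6 clusters had no whole-limb CTCF peak. For whole-limb RAD21 the median was 0.513, and for SMC1 0.198. Of the 1003 receptors elsewhere 84 (8.38%, Wilson 95% interval 6.82 to 10.2) had a whole-limb CTCF peak in the gene or within 5 kb, an interval that overlaps the 4.55% (2.10 to 9.56) of the receptors on chromosome 9.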
